A study of Rattus norvegicus with 2 samples.

Results

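The genes described here are 10 markers of myofibroblasts and smooth muscle, namely Acta2, Tagln, Myl9, Cnn1, Tpm1, Tpm2, Vim, Des, Fn1 and Ccn2. They were taken by symbol from the entries of the table that carry a rat NCBI gene ID, and all 10 were found among 16484 such genes. Urine RNA of Sprague Dawley rats had been sequenced in 2 libraries, 1 labelled WT and 1 labelled UUO. The rats were 8 weeks old (postnatal day 56). In UUO, or unilateral ureteral obstruction, the right ureter was tied, and the WT library stands for rats that had the same surgery without the tie. Urine was drawn from the ureter of the operated side through a catheter 2 weeks after surgery. The number of rats behind each library is not given. With 1 library per group there was no test, and every difference describes these 2 libraries only.

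Levels are FPKM, fragments counted per kilobase and scaled by library, so that genes of different length can be compared. The table calls its conditions UrRf and Urc. UrRf was read as UUO and Urc as WT, from the series title and because the urine lists of the study head these columns as UUO and sham. Every direction below rests on that reading. Neither library gives counts. From the FPKM steps of assembled entries alone at their listed locus, the normalising total came to 2124000 fragments for WT and 2440000 for UUO urine. By these steps 1 fragment on 1000 bp of effective length (the length less a fitted offset) was worth 0.471 FPKM in WT and 0.410 FPKM in UUO urine. A value of 0 in WT urine therefore allows up to 1.41 on such a length, the worth of 3 fragments, for counting error only. A 0 can also be a failed estimate, since the widely used myosin genes Myl6 and Myh9 were listed at 0 in both libraries.

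Myofibroblasts are the contractile, matrix-forming cells of a scarring kidney, and they share much of their contractile machinery with vascular and ureteral smooth muscle. TGF-beta signalling and the actin-sensing factors MRTF and SRF are known to switch on this machinery, of which smooth muscle alpha-actin is the best known marker. Vimentin and desmin are intermediate filaments of mesenchymal and muscle cells, and fibronectin and CCN2 are secreted into the matrix. Several of these proteins are not restricted to such cells, as tropomyosin 1 and vimentin are also made by epithelial cells, endothelium or leukocytes.

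In the UUO library 9 of the 10 genes had the greater FPKM, and Tpm1 alone had the smaller one. At an FPKM of at least 1 WT urine detected 5 of the 10 and UUO urine 9, against 47.3% and 56.3% of all annotated genes. Counted at a 2-fold limit (a difference of at least 1 in log2(FPKM + 1), where 1 of the libraries or both reach an FPKM of 1), 9 genes could be counted. 7 of them were higher in UUO urine (Myl9, Tagln, Acta2, Fn1, Vim, Tpm2 and Des), 1 was lower (Tpm1) and 1 was neither (Ccn2). Cnn1 did not reach the FPKM minimum. Of all annotated genes under the same limits 25.7% were higher and 36.5% lower. The median log2 difference was 1.66 over the 9 genes, and -0.51 over the 9853 annotated genes that passed.

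A gene at 0 in WT urine with an FPKM of at least 1 in UUO urine passes this limit by construction, and 3 of the 7 higher genes (Acta2, Tagln and Myl9) are of that kind. Fn1, at 0.921 FPKM in WT urine, reached the minimum in UUO urine only. The 5 genes with FPKM of at least 1 in both libraries are therefore given apart. Of these, 3 were higher (Tpm2, Vim and Des), Tpm1 was lower and Ccn2 was neither. The median log2 difference of the 5 genes was 1.09, the value of Des. Of 7218 annotated genes with FPKM of at least 1 in both libraries 7.01% were higher and 42.8% lower, and their median log2 difference was -0.81. In bulk urine RNA, a difference in cell number and a difference in RNA per cell cannot be told apart. The paper states that urine was centrifuged before storage and again before RNA was isolated. How much of the RNA came from cells is not given.

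**Figure D1:**
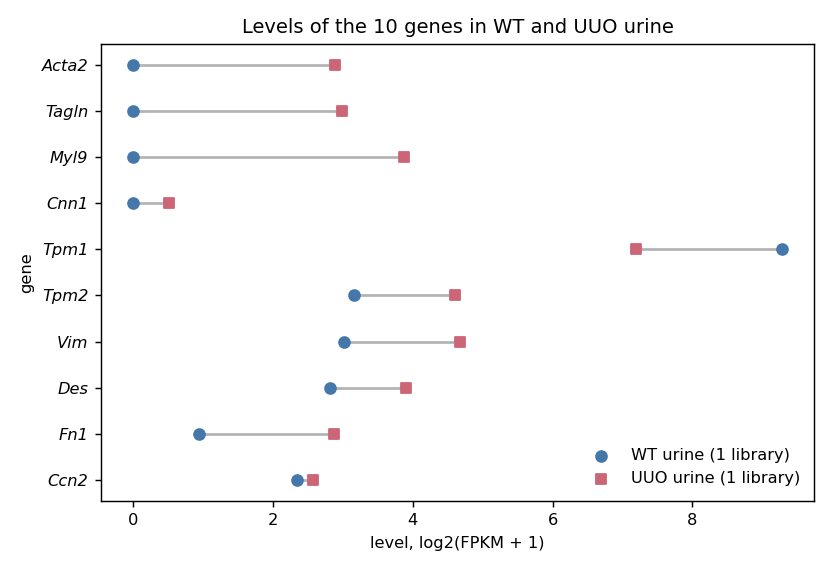
Level of each of the 10 genes on the log2(FPKM + 1) scale (x axis) in the WT library (circles) and the UUO library (squares), with a grey line joining the 2 values of a gene. Acta2, Tagln, Myl9 and Cnn1 sit at 0 in WT urine, and Tpm1 is the one gene whose square lies to the left of its circle.

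**Figure D2:**
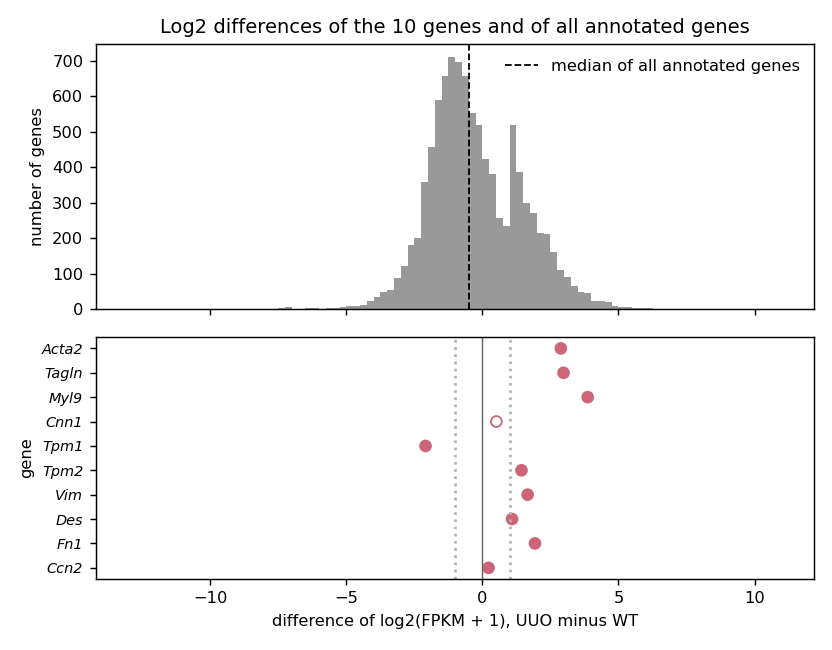
Top, number of annotated genes by difference of log2(FPKM + 1), UUO minus WT, for the 9853 genes that reach an FPKM of 1 in at least 1 library, with a dashed line at their median of -0.51. Bottom, the 10 genes on the same axis, with dotted lines at the 2-fold limit and an open circle for Cnn1, which did not pass the FPKM minimum. The step in the top panel at a difference of 1 is where genes at 0 in WT urine enter.

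Acta2 encodes smooth muscle alpha-actin (gene ID 81633, chromosome 1, 259760520 to 259773301 of rn5, the build named in the submitters' processing notes). WT urine listed it at 0 FPKM and UUO urine at 6.37. It is the only entry listed at its locus. Whether reads were divided between it and related actin genes was not tested. The UUO level is worth 15.6 fragments per 1000 bp of effective length and stood at the 57.4th percentile of the annotated genes above 0 in that library. The log2 difference was 2.88.

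The upstream region of Acta2 is shown because binding sites of SRF are known there. It is the 250 bases before the RefSeq start in assembly GRCr8, chr1:241172504-241172753, minus strand. This assembly is not the build of the table. Capitals mark 2 CArG-like boxes, the site type bound by SRF with 1 base of its A/T core free, and 1 CAGACA, a SMAD motif.
Acta2 upstream: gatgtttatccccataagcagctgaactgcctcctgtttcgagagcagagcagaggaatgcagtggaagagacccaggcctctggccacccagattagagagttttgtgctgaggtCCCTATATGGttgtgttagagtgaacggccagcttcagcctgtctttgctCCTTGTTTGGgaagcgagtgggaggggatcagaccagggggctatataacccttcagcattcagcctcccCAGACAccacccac
The 2 CArG-like boxes begin 134 and 84 bases before the start and the CAGACA begins 14 bases before it. None of the 3 overlap. Promoter sequences of 7 of the 10 genes were in the RefSeq table (Acta2, Cnn1, Tpm1, Tpm2, Vim, Des and Ccn2). An exact CArG box was in 0 of the 7 and in 1.5% of all 33469 upstream regions of 250 bases. The CArG-like form was in Acta2 alone of the 7 and in 8.08% of all regions, and 0.693% of all regions held at least 2. CAGACA, on either strand, was in Acta2 alone of the 7 and in 17.2% of all regions. These matches describe letters only. The CArG-like form was added after the sequence had been seen.

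The study's PCR oligos for Acta2, Fn1 and Ccn2 are given here because the study followed these genes by PCR. It reported PCR of these genes in kidney tissue, and of Fn1 and Ccn2 also in cultured tubule cells. Its PCR of urine was reported for long noncoding RNAs. Where the oligos lie in the transcripts was not determined here. Capitals are not used in them.
Acta2 forward: actgggacgacatggaaaag
Acta2 reverse: gccacatacatggcagggacattg
Fn1 forward: gtggctgccttcaacttctc
Fn1 reverse: gtgggttgcaaaccttcaat
Ccn2 forward: aagacctgtgggatgggc
Ccn2 reverse: tggtgcagccagaaagctc

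Tagln encodes transgelin, an actin-binding protein of smooth muscle (gene ID 25123, chromosome 8, 48824387 to 48852861 of rn5). WT urine listed it at 0 and UUO urine at 6.89 FPKM, a log2 difference of 2.98. Its locus holds 8 entries, among them the protein convertase gene Pcsk7, at 7.40 FPKM in the WT and 4.47 in the UUO library. The noncoding entry NONRATT053174 at that locus had 3.23 in WT urine and was listed at 0 in UUO urine. Summed over all 8 entries, the WT library had 10.6 FPKM and the UUO library 12.6, a log2 difference of 0.23 for the locus, most of whose WT sum is Pcsk7. How the reads of the locus were divided was not tested.

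Myl9 encodes the regulatory light chain of smooth muscle myosin, whose phosphorylation starts contraction (gene ID 296313, chromosome 3, 158832621 to 158838995 of rn5). WT urine listed it at 0 and UUO urine at 13.6 FPKM. Its log2 difference of 3.87 was the greatest of the 10 and stood at the 98.7th percentile of the annotated genes that passed the minimum. The 3 other entries at its locus were at 0 in WT urine too, and Myl9 held 95.8% of the FPKM of the locus in UUO urine. The UUO level is worth 33.2 fragments per 1000 bp of effective length.

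Cnn1 encodes calponin 1, an actin-binding protein of differentiated smooth muscle (gene ID 65204, chromosome 8, 23167832 to 23178918 of rn5). It was listed at 0 in WT urine and at 0.428 in UUO urine, the worth of 1.04 fragments per 1000 bp of effective length. A difference of Cnn1 was not detectable at this depth. The entry NONRATT052910 at the same locus had 0.863 in UUO urine, more than Cnn1 itself, and was at 0 in WT urine. All 8 entries of the locus were at 0 in WT urine and together had 2.18 FPKM in UUO urine, a log2 difference of 1.67 for the locus. With such sums 7 of the 10 loci were higher too, against 32.3% of annotated genes. The locus of Tagln was no longer among the 7 and that of Cnn1 was. The table marks Cnn1 as not tested and the other 9 genes as tested. To be at 0 in the WT library but not in the UUO library, as Acta2, Tagln, Myl9 and Cnn1 were, was shared by 25.3% of all annotated genes.

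The tropomyosins, which lie along the actin filament and control access of myosin to it, went apart. Tpm1 (gene ID 24851, chromosome 8, 77147579 to 77174374 of rn5) stood at 622 FPKM in the WT library and at 145 in the UUO library. It was 4.28-fold lower there, a log2 difference of -2.09. Tpm2 (gene ID 500450, chromosome 5, 63541154 to 63550570 of rn5) stood at 7.94 FPKM in WT urine against 23.2 in UUO urine, 2.92-fold higher, with a log2 difference of 1.44. Tpm1 was thus by far the most abundant of the 10 in both libraries, at the 99.4th percentile of WT and the 98.8th of UUO genes above 0. Its FPKM was 78.3 times that of Tpm2 in WT urine and 6.27 times in UUO urine. These ratios are taken within a library and do not move with the scaling between libraries. Tpm1 has many splice forms, muscle and non-muscle, which the table gives as 1 value. At its locus of 17 entries Tpm1 held 93.6% of the FPKM in WT and 94.8% in UUO urine, and NONRATT055383 had 32.4 in WT urine against 0 in UUO urine.

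Among the intermediate filament genes, Vim (vimentin, gene ID 81818, chromosome 17, 82500843 to 82509387 of rn5) stood at 7.08 FPKM in the WT library and at 24.6 in the UUO library. It was 3.47-fold higher in the latter, with a log2 difference of 1.66. Des (desmin, gene ID 64362, chromosome 9, 82325718 to 82333555 of rn5) stood at 6.06 FPKM in WT against 14.0 in UUO urine. It was 2.31-fold higher, with a log2 difference of 1.09, just over the 2-fold limit. Both stood in the lower part of the WT genes above 0, at percentiles 27.4 and 23.7, and in the upper part of the UUO genes above 0, at 87.7 and 77.2. These 2 scales are not alike, since 8460 annotated genes were at 0 in WT urine and 4476 in UUO urine. The tubule marker Umod went from percentile 70.5 to 88.6 while its FPKM fell from 30.1 to 26.3. A higher percentile in UUO urine is therefore not by itself a rise of the gene. In WT urine the level of Vim was worth 15.0 and that of Des 12.9 fragments per 1000 bp of effective length. Other entries at these 2 loci were all at 0 in WT urine.

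The 2 matrix genes differed in how far they moved. Fn1, which encodes fibronectin (gene ID 25661, chromosome 9, 78674436 to 78743407 of rn5), stood at 0.921 FPKM in the WT library and at 6.33 in the UUO library, a log2 difference of 1.93. The WT value is worth only 1.96 fragments per 1000 bp of effective length, so the 6.87-fold ratio rests on a low level. Entries of the noncoding database at the Fn1 locus were at 0 in WT urine and reached 2.12 in UUO urine (NONRATT058054). Ccn2, which encodes the matricellular protein also called connective tissue growth factor (gene ID 64032, chromosome 1, 23331543 to 23334675 of rn5), stood at 4.06 FPKM in WT against 4.92 in UUO urine, a log2 difference of 0.23. At the Ccn2 locus the entries NONRATG000085 and NONRATT000151 had 6.44 and 6.07 in WT urine and were at 0 in UUO urine. Ccn2 itself held 24.5% of the FPKM of its locus in the WT library and 100% in the UUO library, and the sum over all 6 entries had a log2 difference of -1.57. This sum describes the locus and is not a change of Ccn2. Entries of a locus can overlap and have nearly the same value, as these 2 do, and whether they hold the same reads was not determined.

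The upstream region of Ccn2, a known target of the factors YAP and TEAD, is shown beside that of Acta2. It is chr1:22624615-22624864 of GRCr8, minus strand, the 250 bases before the RefSeq start. Capitals mark 3 copies of GGAATG, the core of the TEAD site, and a TATAAA.
Ccn2 upstream: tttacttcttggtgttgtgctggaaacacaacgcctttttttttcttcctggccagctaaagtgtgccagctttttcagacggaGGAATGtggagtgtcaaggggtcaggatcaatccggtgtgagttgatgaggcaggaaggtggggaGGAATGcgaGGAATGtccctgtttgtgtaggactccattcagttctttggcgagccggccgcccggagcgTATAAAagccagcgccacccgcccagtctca
The copies of GGAATG begin 166, 101 and 92 bases before the start, and the TATAAA begins 31 bases before it. None overlap. Searched on both strands, GGAATG was in 3 of the 7 regions (Acta2, Tpm1 and Ccn2) and in 12.1% of all regions, and 0.0807% of all regions held at least 3 copies. TATAAA, on both strands, was in Ccn2 and Vim of the 7 and in 12.9% of all regions. The GGAATG and TATAAA searches were chosen after the sequence had been seen.

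Each contractile gene of the set has close relatives that most cells use, and the shares within a family do not depend on the scaling between libraries. Acta2 made up 0% of the FPKM summed over 6 actin genes in WT and 0.861% in UUO urine, where Actb had 663 against 2165 in WT urine. Tagln made up 4.82% of the transgelin family in UUO urine, where Tagln2 had a log2 difference of -1.26. Myl9 made up 7.33% of the summed FPKM of Myl9, Myl12a and Myl12b in UUO urine and 0% in WT urine. The share of Tpm2 among 4 tropomyosin genes was 0.895% in the WT library and 6.48% in the UUO library, while that of Tpm1 was 70.1% and 40.6%. Vim made up 45.8% of the FPKM summed over Vim, Des, Gfap and Prph in WT and 62.0% in UUO urine. Among the 4 muscle actins alone (Acta2, Actg2, Acta1 and Actc1), all at 0 in WT urine, Acta2 held 73.8% in UUO urine. Actin, tropomyosin and light-chain genes are near-identical in stretches, so reads can be divided wrongly between relatives.

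**Figure D3:**
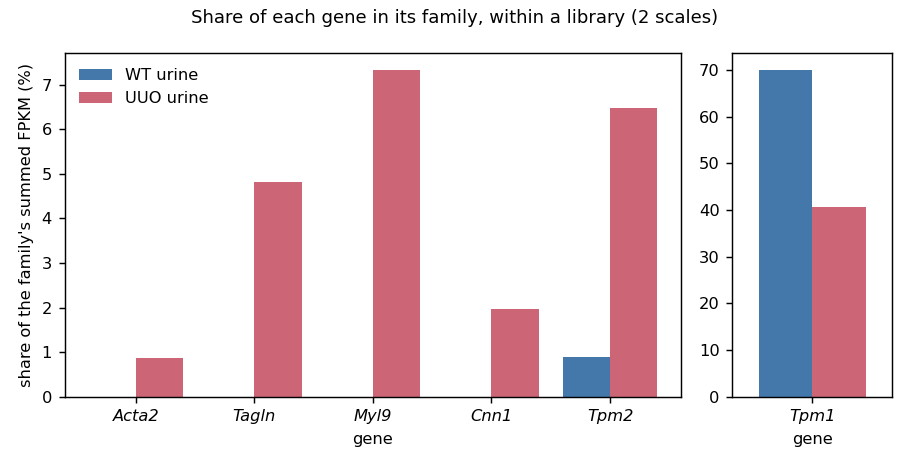
Share (percent) of each gene in the FPKM summed over its family, in WT (blue) and UUO urine (red), for the actin, transgelin, regulatory light chain, calponin and tropomyosin families, with Tpm1 on a separate scale. The shares of Acta2, Tagln, Myl9 and Cnn1 are 0 in WT urine and stay under 8% in UUO urine, while that of Tpm1 goes from 70.1% to 40.6%.

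Of 12 other smooth muscle contractile genes, 8 reached the FPKM minimum, of which 2 were higher in UUO urine, 3 lower and 3 neither, with a median log2 difference of -0.55. These counts are near the shares of all annotated genes (25.7% and 36.5%) and say nothing particular about the list. After rescaling to the median ratio 4 of 9 were higher and 2 lower with a median of 0.07, against 39.8% and 15.6% of annotated genes. Summed over the locus 6 of 12 were higher and 3 lower, against 32.3% and 27.5% of annotated genes. The enteric actin gene Actg2 was listed at 0 in WT and at 2.26 in UUO urine, the greatest difference upward. Mylk, the kinase that phosphorylates Myl9, stood at 109 FPKM in WT against 10.9 in UUO urine, a log2 difference of -3.20. The desmin partner Synm had 28.8 and 3.35. Myh11, the myosin heavy chain that defines smooth muscle, had 2.28 FPKM in WT against 3.54 in UUO urine, a log2 difference of 0.47. The smooth muscle coactivator gene Myocd and the channel subunit gene Kcnmb1 were at 0 in both libraries.

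Of 14 relatives of the 10 genes in the table, most of them widely expressed (Actb, Tagln2, Cnn3, Myl12b and others), 9 reached the minimum. Of these 9, 0 were higher and 5 lower in UUO urine, with a median log2 difference of -1.26. The muscle actin genes Acta1 and Actc1 and the transgelin gene Tagln3 are also among the 14 and did not reach the minimum. The ends of the list were Myh10, a non-muscle myosin gene (19.0 FPKM in WT against 3.64 in UUO urine), and Actg1, a cytoplasmic actin gene (54.4 against 69.1). All 9 were detected in both libraries, where 42.8% of annotated genes were lower. Of 5 further genes of intermediate filaments and their linker plectin (Plec) 4 reached the minimum, with 0 higher, 1 lower (Prph) and a median of -0.11, and Nes, the gene of nestin, had the greatest difference upward at 0.80. Of 12 fibroblast and pericyte genes only 5 reached it, with 1 higher (Dcn, 0 in WT and 4.05 in UUO urine), 0 lower and a median of -0.38. Of these fibroblast and pericyte genes 5 were at 0 in both libraries. Of the 5 other CCN genes, all at 0 in WT urine, 2 reached the minimum in UUO urine. These were Ccn1, at 10.8, and Ccn3, so that Ccn2 held 28.4% of the CCN family there.

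**Figure D4:**
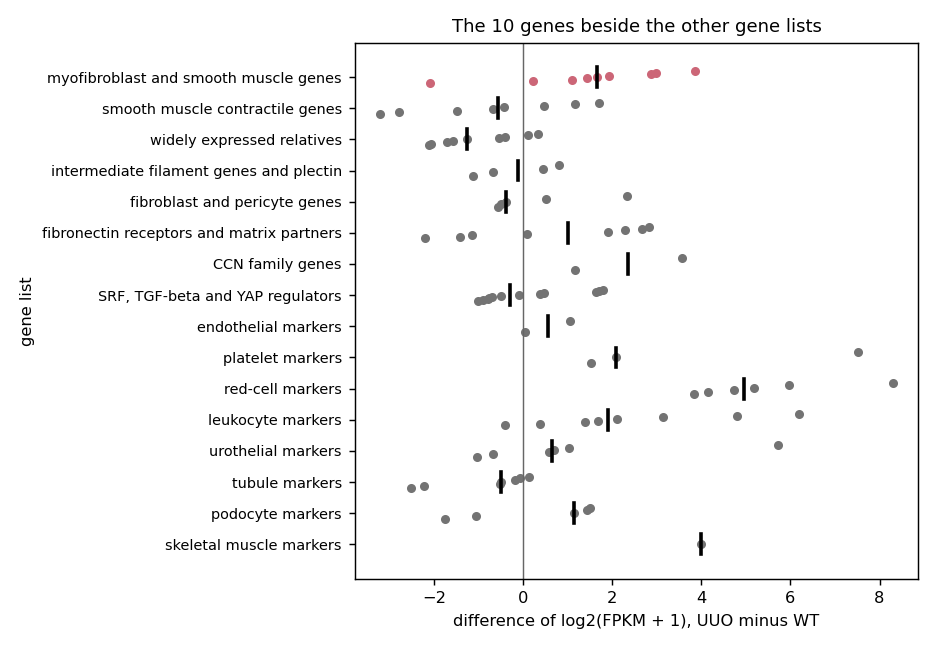
Difference of log2(FPKM + 1), UUO minus WT, of every gene that reaches the FPKM minimum of 1 (1 point a gene), by gene list, with a black bar at the list's median. The myofibroblast and smooth muscle genes (red, top) have a median of 1.66, against -0.55 for the other contractile genes and -1.26 for the widely expressed relatives. The median of all annotated genes that passed is -0.51. Genes at 0 in WT urine are among the first 2 lists. Over genes with FPKM of at least 1 in both libraries the 3 medians are 1.09, -1.48 and -1.26, against -0.81 for all annotated genes.

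Markers of other cells differed between the libraries as well. Counts here are out of all markers in the table, whether or not they reached the minimum. Of all 16484 annotated genes, counted in the same way, 15.4% were higher and 21.8% lower. Both libraries held urothelial RNA, with uroplakin and keratin markers summing to 806 FPKM in WT against 1112 in UUO urine, of which 2 of 6 were higher and 1 lower. Of 7 tubule markers 0 were higher and 2 lower, and their sum was 204 in WT and 122 in UUO urine. All 6 red-cell markers were higher, with sums of 2546 and 79585. Platelet markers summed to 0 in WT and 187 in UUO urine, with 3 of 4 counted as higher and nearly all of the sum from Pf4. Of 9 leukocyte markers 6 were higher and 0 lower, with sums of 15.6 and 148. Of the 9, 6 were at 0 in WT urine, and of the 3 detected in both libraries 1 was higher. Platelets are known to contain Myl9, leukocytes to make vimentin and macrophages to make fibronectin. Of 6 endothelial markers 1 was higher, the sums were 1.80 and 3.40, and Cdh5, Tek and Emcn were at 0 in both libraries. Of 6 podocyte markers 3 were higher and 2 lower, with sums of 45.2 and 56.2. Of 5 skeletal muscle markers, which sum to 0 in WT urine, Tnni2 alone reached the minimum, at 14.9 in UUO urine, and Tnnt3, Myh4 and Myog were at 0 in both libraries. The greatest single differences in these lists included Krt5 of the basal urothelium (0 in WT against 51.8 in UUO urine), Lrp2 of the proximal tubule (38.7 against 5.995), Alas2 of red-cell precursors (0.317 against 414) and S100a9 of neutrophils (0 against 71.7). The part of these cells in the levels of the 10 genes was not tested.

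The scaling moved all genes together. Rescaling by the median ratio multiplied UUO values by 1.86. As deposited, 2534 of 9853 annotated genes were higher (25.7%) and 3600 lower (36.5%). After this rescaling 4207 of 10582 were higher (39.8%) and 1652 lower (15.6%). Among the 10 genes, of which 9 passed the minimum, it raised the higher ones from 7 to 8, as Ccn2 reached 1.003. Tpm1 stayed lower at -1.20. This rescaling sets the median of the genes detected in both libraries to 0. Relative to that median, the log2 differences were 2.53 for Vim, 2.30 for Tpm2 and 1.94 for Des. Fn1 was at 2.73, but at 0.921 FPKM in WT urine it is not among the genes detected in both. Under equal sums over all features Vim, Tpm2, Des and Fn1 were at 2.27, 2.04, 1.68 and 2.49, and Tpm1 was at -1.47. Each of the 3 rescalings multiplies UUO values, so of the genes not at 0 only Tpm1 could have changed direction, and it did not. With a pseudocount of 10 in place of 1 only Myl9 and Vim passed the 2-fold limit upward.

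**Figure D5:**
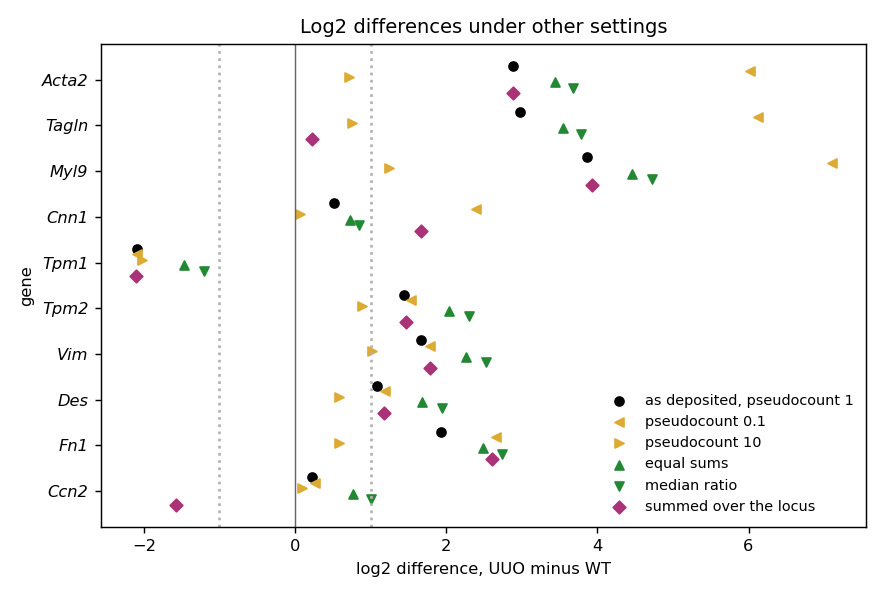
Log2 difference, UUO minus WT, of each of the 10 genes (rows) as deposited, with pseudocounts of 0.1 and 10, with UUO values rescaled to equal sums or to the median ratio, and with FPKM summed over the locus. Dotted lines mark the 2-fold limit. Ccn2 has the one value that changes sign, from 0.23 for the gene to -1.57 for the sum over its locus, and Tpm1 lies under -1 in all 6 settings shown.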

How the data were processed

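Urine RNA of 1 WT and 1 UUO library was analysed from 1 deposited table. Per the submitters' processing notes, the authors used Bowtie2 2.0.6, TopHat2 2.0.9, Cufflinks 2.1.1, Cuffdiff 2.1.1 and build rn5, and the deposited values are FPKM, 1 per feature and library. Which total scaled them is not stated. The table also holds the authors' log2 ratios, test statistics, p-values and q-values, which were not used. Symbols came from RefSeq GRCr8 by gene ID (16329 of 16484 matched). The 10 genes and the 15 other lists were chosen with earlier results of these data known. All 10 genes are named. Of the 7 pathway lists the counts, the median and genes with the greatest differences are given, and of the 8 marker lists the counts, the sums and some such genes. Other named entries were chosen after their values were seen. Differences are log2(FPKM + 1), UUO minus WT, and understate changes of low genes. FPKM steps were fitted on assembled features alone at their locus, 400 to 1200 bp long. Of the values fitted, 99.3% of 138 (WT) and 99.7% of 3496 (UUO) lay within 0.1 of a whole fragment. Functions were tested on simulated data. Protein sequences were not used here. Python 3.11.15, numpy 2.4.6, pandas 2.3.3 and matplotlib 3.10.9 were used.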

Additional observations from a re-analysis of the deposited data

How the results depend on the processing

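No paired analysis was possible because neither group has a second library. A count counts as unchanged if it moved by at most 1.5 times, a log2 difference if neither its sign nor its side of 1 changed. A pseudocount of 10 gave 2 higher genes and a median log2 difference of 0.71, against 3.76% of annotated genes higher and their median of -0.24. With FPKM of at least 1 in both libraries, chosen after seeing the data, 3 of 5 genes were higher, against 7.01% of annotated genes. FPKM summed over the locus gave 2 lower loci of 10, against 27.5% of annotated genes, and that of Ccn2 reversed to -1.57. Such sums add overlapping entries and are no change of the gene itself. The median of the other contractile genes reversed to 0.90 summed over the locus, 0.0734 after rescaling to the median ratio and 0.0379 after rescaling to the 75th percentile. It was -2.77 with a minimum of 5 in place of 1 and -1.48 with FPKM of at least 1 in both. The stricter limits leave fewer genes. The rescalings raise UUO values by 1 factor. The numbers of the 10 genes detected (5 in WT, 9 in UUO urine) stayed within 1.5 times under every alternative tried. Depth limits what the zeros and the value of Cnn1 can show, and 1 library per group limits every difference.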

Other observations

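Fibronectin is bound by integrins and cross-linked into the matrix by other proteins. Under the 2-fold limit 25.7% of all annotated genes were higher and 36.5% lower, with a median log2 difference of -0.51. Of 10 fibronectin receptors and matrix partners in the table, 8 reached an FPKM of 1 in either library. Of these, 4 were higher in UUO urine, 3 lower and 1 neither, with a median log2 difference of 1.001. The higher ones were Itgb3, the beta-3 integrin also found on platelets (0 in WT and 6.10 in UUO urine), Thbs1, thrombospondin 1 (2.17 and 19.1), Tgm2, the matrix cross-linking transglutaminase 2 (6.84 and 37.4), and Itgb1, the beta-1 integrin (6.58 and 27.6). The kinase gene Ilk had 37.0 in WT against 7.27 in UUO urine, the list's greatest difference downward, a log2 difference of -2.20. The integrin gene Itga5 was lower too, at 2.44 in WT and 0.281 in UUO urine, a log2 difference of -1.42. Fbn1 was the remaining lower gene, with a log2 difference of -1.15. Integrin genes of the list thus went in both directions. Of the 5 genes of the list detected in both libraries 3 were higher and 1 lower, against 7.01% and 42.8% of annotated genes. The platelet marker Pf4 was listed at 0 in WT and at 182 in UUO urine, and its part in the levels of Itgb3 and Thbs1 was not tested.

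Of 13 genes in the table that regulate the programme (SRF, the TGF-beta pathway and YAP with its partners), 12 reached the minimum, of which 3 were higher, 1 lower and 8 neither, with a median of -0.29. The share of higher ones is near that of all annotated genes (25.7%), so the genes named are examples only. Smad7, the inhibitory SMAD, had 5.78 in WT and 22.5 in UUO urine and Tead1, a DNA-binding partner of YAP, had 7.90 and 28.1. Smad4, the shared partner of the receptor-activated SMADs, was the lower one, at 40.3 and 19.4. Srf itself had 34.9 in WT and 21.2 in UUO urine.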
